A study of Gnathonemus petersii with 18 samples.

Results

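Transcription factors of developmental families were described across the trigeminal ganglion, the spinal cord and the cerebellum of Gnathonemus petersii, the elephantnose fish, which senses its surroundings with weak electric discharges. A gene was included when its symbol began with the name of a SOX, forkhead, LIM homeodomain (lhx, lmx), POU, paired box, NK (nkx), Iroquois (irx), sine oculis, gsx, dlx, otx, tlx, T-box, GATA, proneural (neurog, atoh, ascl), barhl, evx, phox, PRDM, meis, pbx or RUNX factor. Of 28031 genes in the table, 128 met this rule. Leaving out foxd3, lhx1, lhx3, lhx4, pax2, pax6, pax8, nkx2-2 and tbx3 gave 119 members. No symbol began with tlx or lmx. For 5 members (paxbp1, paxip1, paxx, pou2af1 and runx1t1) the symbol shares the start of a family name, but the protein is a partner or an unrelated nuclear protein and not a factor of that family. The rule reads gene symbols and no measured value. Genes to which the annotation gives only a locus identifier could not be matched, so a family may hold copies not counted here.

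RNA was sequenced from 18 libraries, 6 of each tissue, taken from 6 individual fish. The trigeminal ganglion holds sensory neurons of the head, for touch, warmth, cold and pain, the spinal cord holds relay, inhibitory and motor neurons, and the cerebellum, which is enlarged in this group of fish, holds granule and Purkinje cells. Strain, sex, age, genotype and treatment are not stated in the labels used here. The cerebellum libraries carry the word brain in their titles.

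Families of DNA-binding proteins of this kind divide the embryonic nervous system into regions and cell types. Proneural basic helix-loop-helix factors start neuron formation. LIM, POU, NK, paired box and GSX homeodomain factors give progenitors and neurons their position and transmitter type. Factors of the sine oculis family mark the placodes from which cranial sensory neurons arise, and MEIS and PBX proteins bind DNA together with HOX proteins. SOX factors act from progenitors to newborn neurons, forkhead and T-box factors also build vessels, meninges and connective tissue, and GATA and RUNX factors act in blood as well as in neurons. Many of these genes stay on in mature cells, where they keep a cell's identity.

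The total count was 10413024 to 14183733 per ganglion library, 10346375 to 13379441 per spinal cord library and 10953416 to 17587837 per cerebellum library. Members took 0.104% to 0.16% of the counts in the ganglion, 0.172% to 0.201% in the spinal cord and 0.22% to 0.245% in the cerebellum. Tissue markers went with the labels. The summed level of 9 sensory neuron genes was 1389 to 2416 CPM in the ganglion, 274 to 411 CPM in the spinal cord and 140.4 to 175 CPM in the cerebellum, where isl1 and isl2 had no count. In the same way, 9 spinal cord genes summed to 0.377 to 1.13 CPM in the ganglion, 1080.2 to 1494 CPM in the spinal cord and 1.51 to 4.47 CPM in the cerebellum. For 11 cerebellar neuron genes the sums were 168 to 301 CPM, 417 to 503 CPM and 9546 to 14256 CPM in the same order. CPM stands for counts scaled to the library size after TMM normalization, and it is used to compare tissues. TPM, the authors' length-corrected values, is used to compare genes. A difference was called when edgeR's quasi-likelihood test gave a Benjamini-Hochberg adjusted p under 0.05 over all genes tested and the log2 fold change was at least 1 in size. Values after ± behind a log2 fold change are approximate SEs, the size of the change divided by the square root of the F statistic. Differences given with ± are on the log2 scale, the first-named tissue over the second. Where 3 levels are given together, they are the lowest, the median and the highest of the 6 libraries.

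**Figure D1:**
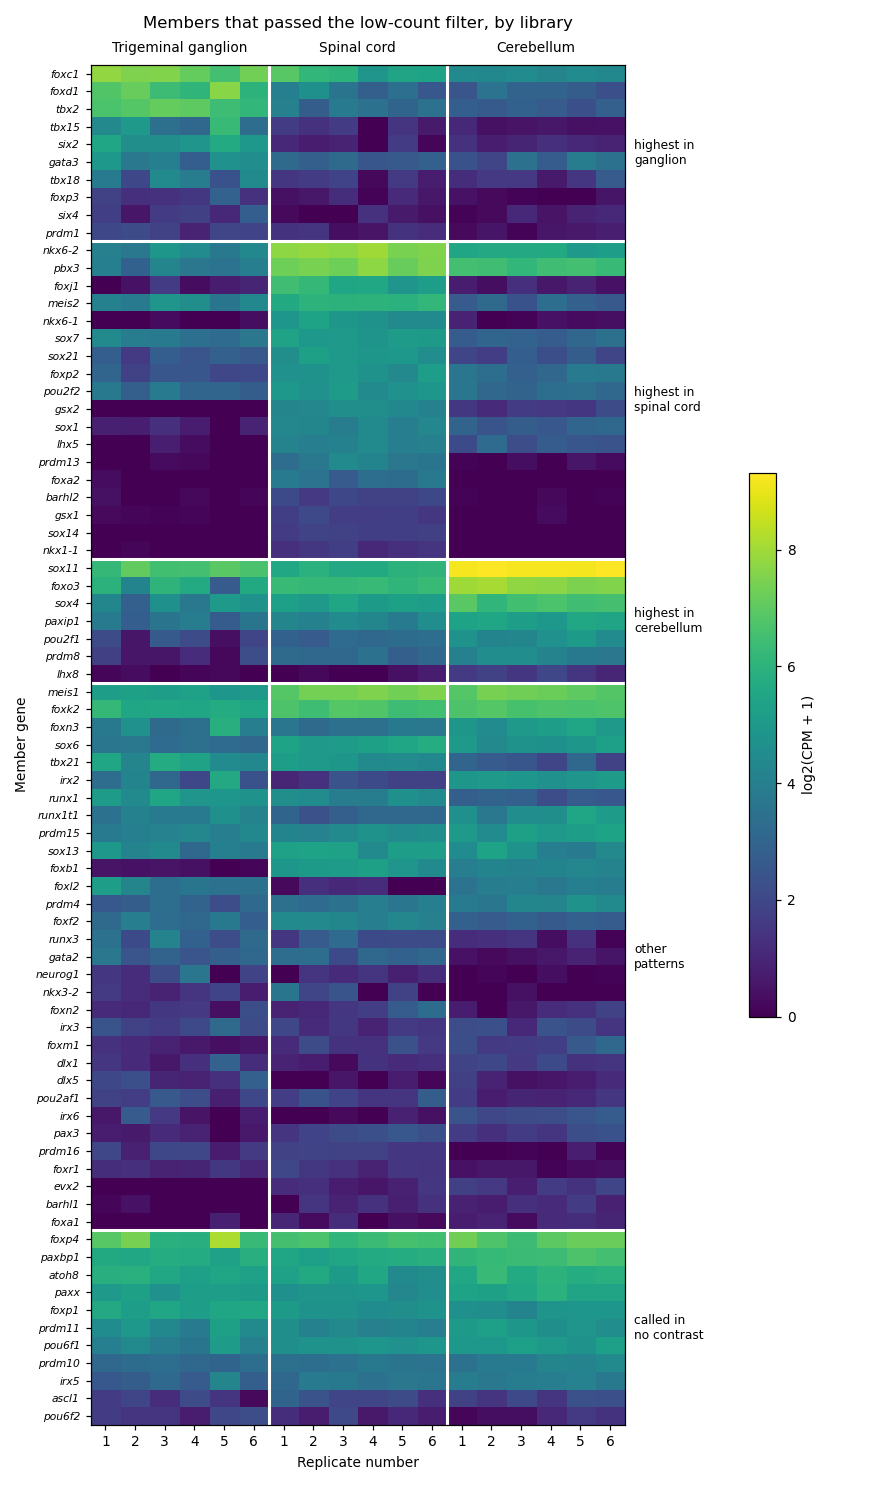
Level of 77 of the 79 members that passed the low-count filter in each of the 18 libraries, as log2(CPM + 1), from 0 (dark) upward (yellow). Rows are genes, set in blocks by the tissue in which they were called highest (10 drawn for the ganglion, 18 for the spinal cord, 7 for the cerebellum), then 31 with other patterns and 11 called in no contrast. Columns are replicates 1 to 6 of each tissue. sox11 in the cerebellum is the brightest row, and replicate 5 of the ganglion departs from its neighbours in several rows.

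Many members of these families differed in level between the tissues. Of the 119, 79 passed the filter on low counts, 37 of them in all libraries of all 3 tissues and 21 in all libraries of a single tissue (6 in the ganglion, 12 in the spinal cord and 3 in the cerebellum). A gene that passes through the tissue where it is high is bound to differ, so the counts that follow describe the members and support nothing about them as a set. Between ganglion and cerebellum 21 members were higher in the ganglion (26.6% of those tested, against 29.6% of all genes tested) and 24 were lower (30.4%, against 22.3%). Between ganglion and spinal cord 17 were higher in the ganglion (21.5%, against 14.5%) and 28 were lower (35.4%, against 17.3%). Between spinal cord and cerebellum 33 were higher in the spinal cord (41.8%, against 28.9%) and 14 were lower (17.7%, against 16.3%). The median log2 fold change of the tested members was -0.21, -0.83 and 0.52 in these contrasts, against 0.07, -0.01 and 0.08 for all genes tested. On the authors' TPM scale the median of all genes lay at -0.52, -0.37 and -0.14. With limma on log2(TPM + 1), 72 members were tested. Of these, 13 were higher and 31 lower in the ganglion than in the cerebellum, and 10 and 31 against the spinal cord. In the spinal cord against the cerebellum the counts were 24 and 12. Over all 20294 genes tested that way, 3075 were higher and 7102 lower, 1201 and 4336, and 4014 and 3872 in the same contrasts.

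By tissue, 11 members were called higher in the ganglion than in both other tissues (13.9% of those tested, against 10.6% of all genes), 18 in the spinal cord (22.8%, against 8.12%) and 7 in the cerebellum (8.86%, against 11.6%). Another 11 were called in no contrast (13.9%, against 33.5%), and the remaining 32 followed other patterns. The contrasts share libraries, so these shares are a description. Of 4 tested T-box genes 3 were highest in the ganglion. Of the 6 tested NK and BARHL genes 4 were highest in the spinal cord, as were 4 of 8 SOX genes. None of the 8 SOX genes was called higher in the ganglion in either of its contrasts, under any alternative in which it was tested. The symbols sox2, sox8, sox9 and sox10 are not in the table, so these genes are not among the 8. Of the genes counted here, nkx6-1, nkx1-1, barhl2 and sox14 reached the filter's minimum in all 6 libraries of the spinal cord only. For tbx15 and tbx18 this held for the ganglion only.

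**Figure D2:**
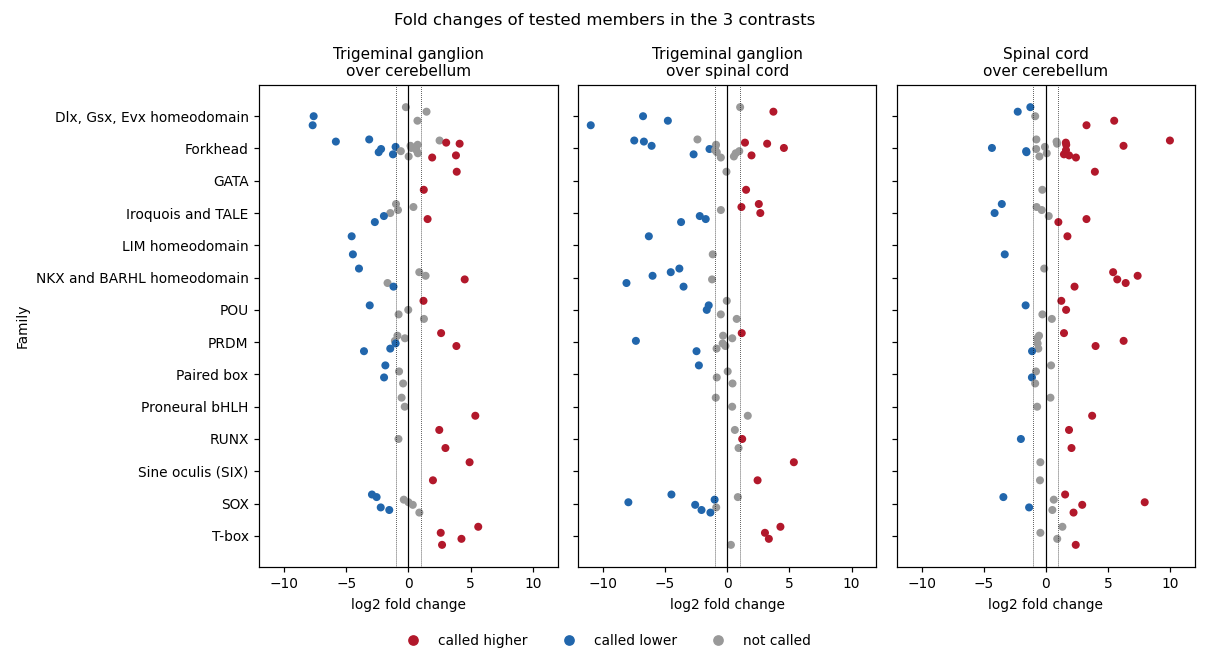
log2 fold change of 77 of the 79 tested members in the 3 contrasts, by family. Each point is a gene, red where called higher, blue where called lower and grey where not called, and dotted lines mark a log2 fold change of 1 in either direction. The sine oculis, T-box, GATA, RUNX and proneural rows hold no blue point in the contrasts of the ganglion. In the contrast of ganglion with spinal cord the LIM, NKX, SOX, POU, paired box and proneural rows hold no red point. Over all genes tested, 14.5% were called higher in that contrast and 17.3% lower, and the GATA and LIM rows hold only 2 points each. Values of genes with no count in a tissue depend on the fit's prior count.

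Some forkhead, T-box and sine oculis genes, known in mouse mainly from mesenchyme, vessels and placodes, were called highest in the trigeminal ganglion. The forkhead family went both ways, with 4 of 18 tested genes higher and 6 lower against the cerebellum, and 4 higher and 5 lower against the spinal cord. The most abundant members there by TPM were foxc1 at 126 ± 50.3 TPM and foxd1 at 94.8 ± 25.2 TPM (SD, n = 6), which were 16.5% and 12.4% of the members' summed TPM. Next came sox11, paxx and tbx2 at 72 ± 11.6, 53.5 ± 8.03 and 45.7 ± 17 TPM.

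The gene foxc1, a forkhead factor of meninges, vessels and head mesenchyme in mouse, stood at 91.6, 169.6 and 225 CPM in ganglion libraries, 27.7, 53.5 and 118 in spinal cord libraries and 17.8, 20.03 and 21.7 in cerebellum libraries. All ganglion libraries lay above all cerebellum libraries, whereas spinal cord replicate 1 at 118 CPM lay above ganglion replicate 5 at 91.6 CPM. Its log2 fold change was 3.03 ± 0.286 (edgeR adjusted p = 1.52e-08) against the cerebellum and 1.43 ± 0.269 (edgeR adjusted p = 0.000179) against the spinal cord. In the spinal cord it was also higher than in the cerebellum, by 1.60 ± 0.272 (edgeR adjusted p = 4e-05). Its relative foxd1, known in mouse from kidney stroma and the retina, was at 63.3, 95.6 and 203 CPM in ganglion libraries, 4.7, 10.3 and 24.8 in spinal cord libraries and 3.81, 6.27 and 10.8 in cerebellum libraries. The ganglion libraries were all above those of the other tissues, with log2 fold changes of 4.11 ± 0.408 (edgeR adjusted p = 3.16e-08) against the cerebellum and 3.21 ± 0.39 (edgeR adjusted p = 1.12e-06) against the spinal cord. Spinal cord and cerebellum did not differ by the call (0.90 ± 0.374).

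Among T-box genes, tbx2, a transcriptional repressor of the developing eye and heart, had 70.9, 107 and 136 CPM in ganglion libraries, 5.73, 10.2 and 15.8 in spinal cord libraries and 3.88, 5.61 and 6.49 in cerebellum libraries. No ganglion library overlapped with another tissue. The change was 4.26 ± 0.247 (edgeR adjusted p = 1.4e-11) against the cerebellum and 3.35 ± 0.236 (edgeR adjusted p = 5.96e-10) against the spinal cord. The gene tbx15, needed in mouse for skeleton and skin mesenchyme, reached 7.71, 14.8 and 76.2 CPM in ganglion libraries, 0, 1.57 and 2.09 in spinal cord libraries and 0.344, 0.379 and 1.06 in cerebellum libraries. It was the member with the largest positive log2 fold change between ganglion and cerebellum, 5.61 ± 0.715 (edgeR adjusted p = 9.27e-07), and was at 4.28 ± 0.661 (edgeR adjusted p = 2.07e-05) against the spinal cord. Its ganglion values ran over a wide range, with replicate 5 highest and replicate 2 next. Another T-box gene, tbx18, found in mouse mural cells and mesenchyme, had 3.07, 13.9 and 20.9 CPM in ganglion libraries, 0.156, 1.87 and 2.63 in spinal cord libraries and 0.578, 1.83 and 5.32 in cerebellum libraries. It was higher in the ganglion than in the cerebellum by 2.59 ± 0.583 (edgeR adjusted p = 0.000564), where the lowest ganglion library lay below the highest cerebellum library, and than in the spinal cord by 3.04 ± 0.601 (edgeR adjusted p = 0.000299), with no overlap.

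Of the sine oculis genes, six2, a factor of kidney and head mesenchyme in mouse, stood at 23.4, 28.9 and 51.2 CPM in ganglion libraries, 0, 0.758 and 2.16 in spinal cord libraries and 0.688, 0.992 and 1.5 in cerebellum libraries. The groups did not overlap, and the change was 4.91 ± 0.509 (edgeR adjusted p = 5.75e-08) against the cerebellum and 5.36 ± 0.53 (edgeR adjusted p = 6.96e-08) against the spinal cord. Low levels were seen for six4, a factor of cranial placodes and of muscle, at 2.38 ± 1.87 CPM in the ganglion, 0.428 ± 0.563 CPM in the spinal cord and 0.607 ± 0.448 CPM in the cerebellum (SD, n = 6). It was higher in the ganglion by 1.97 ± 0.752 against the cerebellum and 2.44 ± 0.786 against the spinal cord, with overlapping libraries in both. The muscle actin gene acta1 differed between libraries, with 3.65 to 3252 CPM in the ganglion, where replicate 1 was far above the rest. It ranged over 106 to 1295 CPM in the spinal cord and over 0 to 0.863 CPM in the cerebellum. Of 10 listed skeletal muscle symbols 4 are in the table and 3 were tested. Of those 3, 2 were called higher and 1 lower in ganglion against cerebellum, and likewise in spinal cord against cerebellum. In ganglion against spinal cord 1 was lower and 2 were not called. Libraries were left out by acta1 alone. With 4 acta1-rich libraries left out (replicate 1 of the ganglion, replicates 1, 3 and 5 of the spinal cord), six4 lost its call against the spinal cord, while its log2 fold change there was no lower than 1.93 under any alternative. Leaving out ganglion replicate 6, cerebellum replicate 1 or cerebellum replicate 2 ended the call of six4 against the cerebellum, at log2 fold changes no lower than 1.48.

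In the contrasts of the ganglion, markers of connective tissue mostly went the same way as this group. All 5 tested were called higher in the ganglion than in the cerebellum. Against the spinal cord 4 were called higher and 1 lower, at a log2 fold change of -1.30. In spinal cord against cerebellum all 5 were called higher, as was foxc1, while foxd1, tbx2, tbx15, tbx18, six2 and six4 were not called. The summed level of 5 fibroblast and connective tissue genes (5 of 11 listed symbols are in the table, all with counts in every tissue) was 502 to 1737 CPM in the ganglion, 230.2 to 333 CPM in the spinal cord and 30.1 to 42.7 CPM in the cerebellum. For endothelial genes, with 4 of 9 in the table, the sum was 74.2 to 137 CPM, 241 to 345 CPM and 166 to 205 CPM in the same order. Most of that sum was cldn5, which was called lower in the ganglion than in both other tissues. Of the other endothelial genes tek was called higher than in the cerebellum and kdr lower than in the spinal cord. Their part in the forkhead, T-box and sine oculis values was not tested. In whole tissue, fewer cells of a type and less RNA per cell cannot be told apart.

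Some genes of factors known from blood cells or sensory neurons, put together here after their values were seen, were called higher in the ganglion than in the cerebellum. They were runx1, runx3, tbx21, gata2, gata3, foxp3 and prdm1, of which gata3, foxp3 and prdm1 were also called higher than in the spinal cord. The gene runx1, which in mouse acts in nociceptors and in the origin of blood stem cells, averaged 30.5 ± 8.41 CPM in the ganglion, 19.9 ± 4.63 CPM in the spinal cord and 5.5 ± 1.16 CPM in the cerebellum. The ganglion was higher than the cerebellum by 2.48 ± 0.219 (edgeR adjusted p = 6.24e-09) and was not called against the spinal cord (0.62 ± 0.206, edgeR adjusted p = 0.0176). For runx3, tied in mouse to proprioceptive neurons and T cells, the changes were 2.97 ± 0.564 and, not called, 0.91 ± 0.516, the second being called without ganglion replicates 2 and 5. The T cell factor gene tbx21 averaged 32.6 ± 14.9 CPM in the ganglion, 26.6 ± 6.92 CPM in the spinal cord and 5.03 ± 2.14 CPM in the cerebellum. It was called higher in the ganglion than in the cerebellum and was not called against the spinal cord (0.30 ± 0.306, and as low as -0.21 among the alternatives). GATA factors act in blood and, in the spinal cord, in inhibitory neurons. The gene gata2 had 4.46, 6.44 and 11.9 CPM in ganglion libraries, 3.29, 7.57 and 9.37 in spinal cord libraries and 0.172, 0.403 and 0.917 in cerebellum libraries. Ganglion and spinal cord overlapped (-0.06 ± 0.32, edgeR adjusted p = 0.895). All libraries of both lay above those of the cerebellum, with 3.88 ± 0.38 (edgeR adjusted p = 2.6e-08) for the ganglion and 3.94 ± 0.38 (edgeR adjusted p = 3.17e-08) for the spinal cord.

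The related gata3 was at 5.84, 18.9 and 29.9 CPM in ganglion libraries, 4.62, 6.12 and 8.43 in spinal cord libraries and 2.84, 7.85 and 14.1 in cerebellum libraries. It was called higher in the ganglion than in the cerebellum (1.23 ± 0.38, edgeR adjusted p = 0.00709) and than in the spinal cord (1.52 ± 0.385, edgeR adjusted p = 0.00268), with overlapping libraries in both. Neither call held with limma on the TPM scale, where the log2 fold changes with an added 1 were 0.53 and 0.82. Low levels were seen for foxp3, the factor of regulatory T cells (2.58 ± 2.004 CPM in the ganglion), and for prdm1, a factor of plasma cells that in zebrafish also acts in sensory neurons of the skin (2.55 ± 0.874 CPM). Both were called highest in the ganglion. The call of foxp3 against the spinal cord was lost without ganglion replicate 5. Its call for spinal cord against cerebellum held under 17 of 26 alternatives and was lost, among others, with the replicate block and on leaving out any of 6 single libraries. The call of prdm1 against the spinal cord was lost on leaving out any of 11 libraries in turn. Of 8 listed leukocyte symbols 3 are in the table, with mpeg1 near 0 in all tissues. They summed to 3045 to 12666 CPM in the ganglion, 2776 to 5755 CPM in the spinal cord and 534 to 1605 CPM in the cerebellum. Only 2 were tested, and neither was called in ganglion against spinal cord (0.10 and 0.48). Both were called higher in ganglion and in spinal cord than in the cerebellum. The part of leukocyte genes in the RUNX, GATA, tbx21, foxp3 and prdm1 values was not tested.

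Among factors of sensory neurons, prdm12, which is needed for nociceptors in mouse and human, was almost absent outside the ganglion. It did not pass the filter, which reads CPM before TMM scaling, because ganglion replicate 5 was at 0.669 on that scale, below the minimum of 0.823. It was singled out here after its values were seen. Its levels in ganglion replicates 1 to 6 were 9.5, 8.62, 8.5, 13.1, 1.1 and 6.51 CPM. Over the 6 libraries this made 551 counts in the ganglion, 4 in the spinal cord and 7 in the cerebellum, and every ganglion library lay above every library of the other tissues. Fitted with no filter beyond 1 count, its log2 fold change was 6.54 ± 0.791 (edgeR adjusted p = 4.21e-07) against the cerebellum and 6.91 ± 0.84 (edgeR adjusted p = 1.02e-06) against the spinal cord. The proneural gene neurog1, which starts the formation of cranial sensory neurons, averaged 3.48 ± 4.16 CPM in the ganglion, 1.11 ± 0.644 CPM in the spinal cord and 0.07 ± 0.102 CPM in the cerebellum. It was higher in the ganglion than in the cerebellum by 5.37 ± 1.01, and was not called against the spinal cord (1.66 ± 0.78), though it was without ganglion replicate 5. Replicate 4 of the ganglion held 11.6 CPM and replicate 5 no count. Other genes listed here as sensory ganglion factors went the other way. Of the 10 tested, 5 were called higher and 3 lower against the cerebellum, and 2 higher and 2 lower against the spinal cord. The lower ones were sox11, sox4 and prdm8 against the cerebellum, and prdm8 and pou2f2 against the spinal cord.

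Ganglion replicates 5 and 2 stood apart in several of these genes. Their TMM factors were 0.611 and 0.814, against 0.974 to 1.06 in the other ganglion libraries, which raises their CPM. Replicate 5 also had the fewest genes with a count, 21768 against 22931 to 23955 in the other ganglion libraries. The part of this scaling in the values that follow was not tested. In replicate 5 tbx15 was at 76.2 CPM, irx2 at 47.7 CPM, foxp4 at 291 CPM and foxn3 at 57.6 CPM, above all other ganglion libraries, while prdm12 at 1.1 CPM and foxo3 at 5.32 CPM were the lowest. The gene dlx6 had 20 of its 27 counts there. Replicate 2 was second highest for tbx15, irx2, foxp4 and foxn3 and second lowest for foxo3. With both left out, 84 members were tested in place of 79. Those called higher in the ganglion were 26 against the cerebellum and 16 against the spinal cord. Members called lower numbered 27 and 31, and those highest in the cerebellum 11 in place of 7. Over all 21242 genes tested, 6003 and 2283 were higher in the ganglion in these contrasts, and 4610 and 3418 lower.

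**Figure D3:**
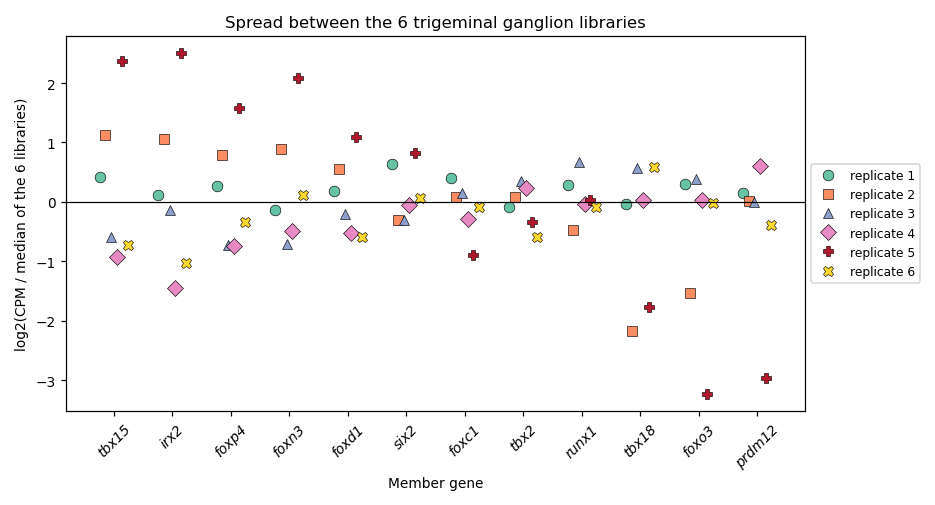
Spread between the 6 ganglion libraries for 12 members, as log2 of the CPM over the median of the 6, with a symbol per replicate. Replicate 5 (dark red plus) is the highest in tbx15, irx2, foxp4, foxn3, foxd1 and six2, and the lowest in foxc1, foxo3 and prdm12. CPM is taken after TMM scaling, with a factor of 0.611 in replicate 5, 0.814 in replicate 2 and 0.974 to 1.06 in the others. The genes were chosen after their values were seen.

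The spinal cord had the most members called highest in a single tissue, with genes of dorsal inhibitory neurons, ventral progenitors, floor plate and ependyma. By TPM, nkx6-2 led at 257 ± 33.9 TPM (SD, n = 6), which was 19.97% of the members' summed TPM there, followed by meis1 at 105 ± 16 and pbx3 at 76.1 ± 11.5 TPM.

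The gene gsx2, a homeodomain factor of dorsal progenitors, had no count in any of the ganglion libraries, 16.1, 19.2 and 23.3 CPM in spinal cord libraries and 1.2, 1.88 and 3.45 in cerebellum libraries. In the ganglion it was at least 427-fold lower than in the spinal cord and at least 44.4-fold lower than in the cerebellum, against a floor of 3 counts over the 6 ganglion libraries. The spinal cord exceeded the cerebellum by 3.26 ± 0.261 (edgeR adjusted p = 4.52e-08). All spinal cord libraries lay above all cerebellum libraries. Its sister gsx1 had 5 counts in the ganglion, 172 in the spinal cord and 4 in the cerebellum (5.49 ± 0.655 for spinal cord against cerebellum). The gene prdm13, which in mouse steers dorsal progenitors to an inhibitory fate, stood at 0, 0 and 0.199 CPM in ganglion libraries, 9.01, 12.1 and 20.2 in spinal cord libraries and 0, 0.139 and 0.494 in cerebellum libraries. The spinal cord libraries were separate from both other tissues, with -7.34 ± 0.691 (edgeR adjusted p = 3.47e-08) for ganglion against spinal cord and 6.25 ± 0.61 (edgeR adjusted p = 3.76e-08) for spinal cord against cerebellum.

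The LIM homeodomain gene lhx5, a factor of dorsal spinal and of Purkinje cell precursors, had 0, 0 and 0.73 CPM in ganglion libraries, 14.8, 16 and 20.7 in spinal cord libraries and 3.25, 4.41 and 8.6 in cerebellum libraries. It separated all 3 tissues, at -6.30 ± 0.577 (edgeR adjusted p = 2.31e-08) for ganglion against spinal cord, -4.57 ± 0.565 (edgeR adjusted p = 6.18e-07) for ganglion against cerebellum and 1.73 ± 0.422 (edgeR adjusted p = 0.00135) for spinal cord against cerebellum. The gene sox14, known from interneurons of the ventral cord, had 177 counts in the spinal cord, in 6 of 6 libraries, and none in the ganglion or the cerebellum. It was thus at least 52.5-fold lower in the ganglion than in the cord, and at least 72.8-fold higher in the cord than in the cerebellum. Of the BARHL genes, which mark dorsal excitatory relay neurons and cerebellar granule cell precursors, barhl2 had 7, 195 and 5 counts in ganglion, spinal cord and cerebellum. Its relative barhl1 had 4, 78 and 105. Spinal cord and cerebellum were not called different for barhl1, with log2 fold changes of -0.64 to 0.44 among the alternatives. The even-skipped genes of commissural neurons were at 1, 81 and 1 counts for evx1, which did not pass the filter, and 0, 78 and 175 for evx2. Between spinal cord and cerebellum evx2 was not called, and this held under 24 of 27 alternatives.

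Of the ventral and midline factors, nkx6-1, a homeodomain factor of ventral progenitors and motor neurons, had 0, 0 and 0.283 CPM in ganglion libraries, 20.2, 27.3 and 41.3 in spinal cord libraries and 0, 0.25 and 0.875 in cerebellum libraries. Ganglion and cerebellum libraries stayed under 1 CPM, and the changes were -8.10 ± 0.638 (edgeR adjusted p = 2.79e-09) for ganglion against spinal cord and 6.41 ± 0.538 (edgeR adjusted p = 4.54e-09) for spinal cord against cerebellum. Its paralogue nkx6-2, also a factor of myelinating oligodendrocytes in mouse, was abundant in all 3 tissues, at 12.2, 17.5 and 29.5 CPM in ganglion libraries, 174, 212 and 254 in spinal cord libraries and 30.7, 45.9 and 49.8 in cerebellum libraries. No libraries overlapped between tissues, with -3.51 ± 0.212 (edgeR adjusted p = 6.64e-11) for ganglion against spinal cord, -1.21 ± 0.196 (edgeR adjusted p = 1.89e-05) for ganglion against cerebellum and 2.30 ± 0.2001 (edgeR adjusted p = 7.62e-09) for spinal cord against cerebellum. Without ganglion replicates 2 and 5 its difference between ganglion and cerebellum was -0.99, just short of the call. Of 9 listed oligodendrocyte symbols 5 are in the table. They summed to 543 to 907 CPM in the ganglion, 2218 to 2647 CPM in the spinal cord and 619.7 to 936 CPM in the cerebellum. The 5 genes went both ways in ganglion against cerebellum, with 1 called higher, 3 lower and 1 not called. In ganglion against spinal cord 4 were lower and 1 not called, and in spinal cord against cerebellum all 5 were higher. Their part in the values of nkx6-2 was not tested.

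The floor plate factor gene foxa2 had 0, 0 and 0.252 CPM in ganglion libraries, 5.45, 9.97 and 12.9 in spinal cord libraries and no count in any of the cerebellum libraries, the 3 ganglion counts all lying in replicate 1. The ganglion was 216-fold lower by scaled counts (95% counting interval 73.6 to 1050.2) than the spinal cord, and foxa2 was at least 299.8-fold higher in the spinal cord than in the cerebellum. The gene foxj1, the switch for motile cilia such as those of ependyma, stood at 0, 0.49 and 2.19 CPM in ganglion libraries, 28.1, 46.1 and 87.3 in spinal cord libraries and 0.258, 0.575 and 1.46 in cerebellum libraries. The differences were -6.08 ± 0.565 (edgeR adjusted p = 2.92e-08) for ganglion against spinal cord and 6.24 ± 0.562 (edgeR adjusted p = 1.23e-08) for spinal cord against cerebellum. Its spinal cord values ran over a wide range, with replicate 1 highest and replicate 5 lowest. Astroglia and ependyma genes, 5 of 7 listed symbols, summed to 1442 to 2330.1 CPM in the ganglion, 6490 to 8280 CPM in the spinal cord and 2353 to 3820 CPM in the cerebellum, and their part in the foxj1 values was not tested. In spinal cord against cerebellum s100b and fabp7, which make up most of the sum, were called higher, aqp4 was called lower, and slc1a2 and slc1a3 were not called.

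The SOXB genes sox1 and sox21 were called highest in the spinal cord. The gene sox1, a SOXB1 factor of neural progenitors, had 0, 0.733 and 1.46 CPM in ganglion libraries, 14, 18.7 and 20.9 in spinal cord libraries and 4.3, 6.22 and 7.63 in cerebellum libraries. All 3 tissues were separate, at -4.48 ± 0.359 (edgeR adjusted p = 3.52e-09) for ganglion against spinal cord, -2.94 ± 0.346 (edgeR adjusted p = 3.31e-07) for ganglion against cerebellum and 1.55 ± 0.301 (edgeR adjusted p = 0.00017) for spinal cord against cerebellum. For sox21, a SOXB2 factor, the levels were 4.94 ± 1.58 CPM in the ganglion, 29.5 ± 5.65 CPM in the spinal cord and 3.88 ± 1.54 CPM in the cerebellum, and ganglion and cerebellum were not called different (0.35 ± 0.271). The endothelial factor gene sox7 averaged 12.8 ± 4.19, 32.8 ± 4.46 and 7.03 ± 1.57 CPM in ganglion, spinal cord and cerebellum. The endothelial sum given above was likewise highest in the spinal cord, and its part in the sox7 values was not tested.

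The remaining members called highest in the spinal cord were pbx3, meis2, foxp2, pou2f2, nkx1-1 and the genes above. The HOX cofactor gene pbx3 averaged 12.9 ± 4.14 CPM in the ganglion, 169 ± 25.3 CPM in the spinal cord and 84.4 ± 8.24 CPM in the cerebellum. Between spinal cord and cerebellum its log2 fold change of 1.00 lay at the threshold, and the call was lost under the replicate block and under 14 other alternatives. The cofactor gene meis2 averaged 18.6 ± 6.49, 61.7 ± 6.75 and 6.42 ± 2.02 CPM in the same order, with -1.73 ± 0.225 for ganglion against spinal cord and 1.54 ± 0.228 for ganglion against cerebellum. For meis2 the call for ganglion against cerebellum was lost with limma on both TPM scales, with values as low as 0.75. The paralogue meis1 was at 28.6, 35.9 and 39.4 CPM in ganglion libraries, 116, 164 and 183 in spinal cord libraries and 112, 137 and 167 in cerebellum libraries. Here spinal cord and cerebellum overlapped (0.23 ± 0.138, edgeR adjusted p = 0.153). The ganglion was lower than both at a log2 fold change of -2.20 ± 0.144 (edgeR adjusted p = 2.16e-10) against the spinal cord and -1.98 ± 0.143 (edgeR adjusted p = 3.54e-10) against the cerebellum. The forkhead gene foxp2, a factor of Purkinje cells and spinal interneurons, averaged 4.18 ± 1.74, 27.5 ± 5.64 and 10.05 ± 2.84 CPM.

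**Figure D4:**
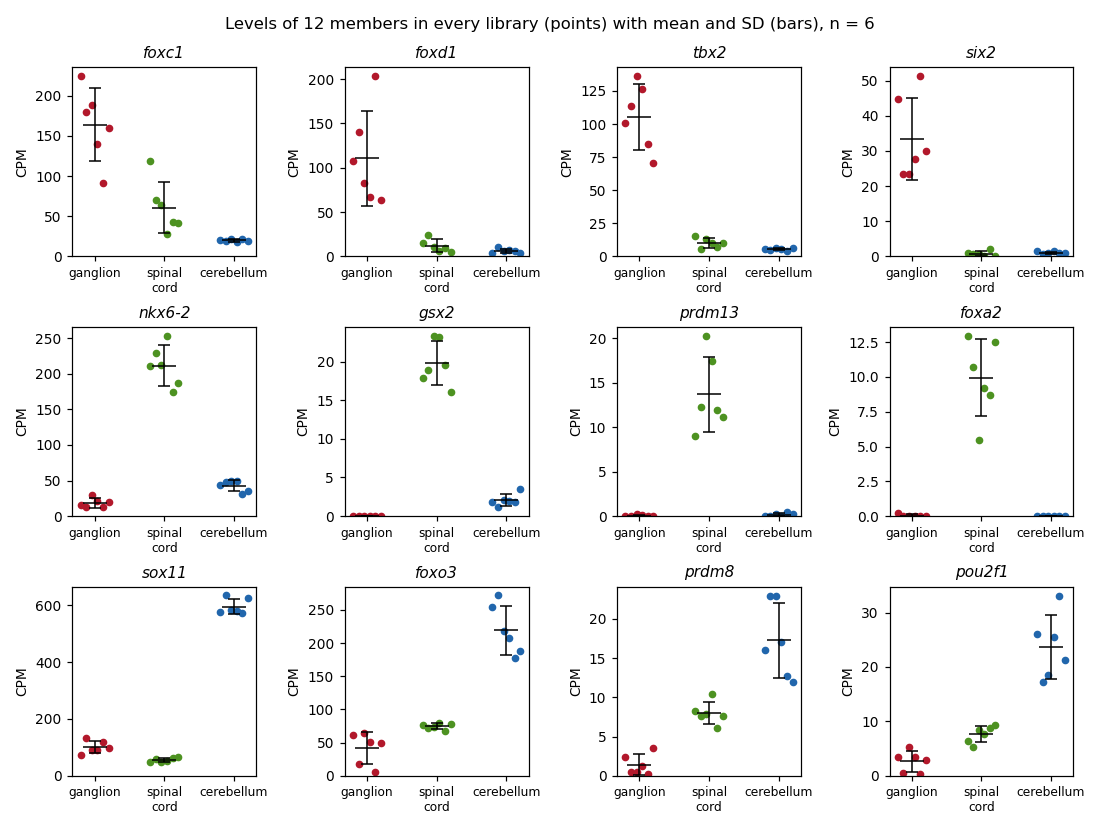
Levels of 12 members in CPM on linear axes that start at 0, with a point per library and the mean and SD of the 6 libraries as bars. The upper row holds genes high in the ganglion, the middle row genes high in the spinal cord and the lower row genes high in the cerebellum. All 6 cerebellum points of sox11 lie between 575 and 637 CPM, above every other library.

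Among the 7 members called highest in the cerebellum, sox11, foxo3 and sox4 had the highest levels. The gene sox11, which drives the maturation of newborn neurons, had 72.7, 94.4 and 134 CPM in ganglion libraries, 47.5, 55.1 and 65.8 in spinal cord libraries and 575, 581 and 637 in cerebellum libraries. The cerebellum libraries spread by a coefficient of variation of 4.63%, the smallest among 30 members there with a mean of at least 10 CPM. In TPM sox11 made up 37.8% of the members' sum in the cerebellum, at 665 ± 35.9 TPM. It was lower in the ganglion at a log2 fold change of -2.56 ± 0.149 (edgeR adjusted p = 1.45e-11) and in the spinal cord at a log2 fold change of -3.42 ± 0.155 (edgeR adjusted p = 1.28e-12). The ganglion lay above the spinal cord without reaching the call (0.86 ± 0.142, edgeR adjusted p = 4.76e-05). Its relative sox4 averaged 20.0 ± 9.54, 36.8 ± 4.44 and 93.7 ± 16.5 CPM in ganglion, spinal cord and cerebellum, with -2.23 ± 0.27 for ganglion against cerebellum and -1.35 ± 0.262 for spinal cord against cerebellum. The gene foxo3, a target of insulin signalling that acts in stress and survival, averaged 41.6 ± 24.5, 74.4 ± 4.48 and 219.6 ± 36.9 CPM, with -2.40 ± 0.373 and -1.56 ± 0.363 in the same contrasts. It was not called between ganglion and spinal cord (-0.83 ± 0.359) but was with the replicate block.

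Lower in level, prdm8, which shapes projection neurons in mouse, had 0.157, 0.886 and 3.59 CPM in ganglion libraries, 6.07, 7.77 and 10.5 in spinal cord libraries and 12, 16.6 and 23 in cerebellum libraries. It was lower in the ganglion at a log2 fold change of -3.58 ± 0.451 (edgeR adjusted p = 8.1e-07) and in the spinal cord at a log2 fold change of -1.11 ± 0.398 (edgeR adjusted p = 0.0194). The second of these calls was lost with upper-quartile scaling (-0.96) and without the 4 libraries highest in acta1. The octamer-binding factor gene pou2f1 stood at 0.313, 3.12 and 5.24 CPM in ganglion libraries, 5.35, 8.03 and 9.24 in spinal cord libraries and 17.3, 23.5 and 33.1 in cerebellum libraries. All 3 tissues were called different, with -3.11 ± 0.414 (edgeR adjusted p = 1.58e-06) for ganglion against cerebellum, -1.63 ± 0.385 (edgeR adjusted p = 0.00104) for spinal cord against cerebellum and -1.49 ± 0.4004 (edgeR adjusted p = 0.0043) for ganglion against spinal cord. The list of members highest in the cerebellum also held paxip1, a subunit of a histone methyltransferase complex, at -1.96 ± 0.224 and -1.12 ± 0.217, and lhx8, with 5, 14 and 182 counts in ganglion, spinal cord and cerebellum. The granule cell founder gene atoh1 had 3, 0 and 28 counts and otx2, a factor of the forebrain and of the developing cerebellum, 8, 1 and 59. Neither passed the filter.

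Some members were called lower in a single tissue than in both others, which were not called different from each other. The gene foxl2, known from the ovary and the eyelid, had 9.36, 10.9 and 36.3 CPM in ganglion libraries, 0, 0.648 and 1.41 in spinal cord libraries and 10.8, 14.2 and 15.3 in cerebellum libraries. The spinal cord was lowest, at -4.34 ± 0.598 (edgeR adjusted p = 3.39e-06) against the cerebellum, and the ganglion was higher than the spinal cord by 4.56 ± 0.602 (edgeR adjusted p = 3.19e-06). Between ganglion and cerebellum it was not called (0.22 ± 0.486, edgeR adjusted p = 0.694), and that value turned to -0.20 without ganglion replicate 1, which held 36.3 CPM. Among Iroquois genes, which pattern the neural plate, irx2 had 3.08, 8.43 and 47.7 CPM in ganglion libraries, 1.001, 2.55 and 4.23 in spinal cord libraries and 25.3, 29 and 33.5 in cerebellum libraries. It was lower in the spinal cord than in the cerebellum at a log2 fold change of -3.54 ± 0.542 (edgeR adjusted p = 1.18e-05). Between ganglion and cerebellum it was not called (-1.002 ± 0.485, edgeR adjusted p = 0.0715) but was under the replicate block, at -1.42, and without ganglion replicate 5, at -1.83. The ganglion was higher than the spinal cord by 2.54 ± 0.529 (edgeR adjusted p = 0.000493).

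A similar order was seen for irx6, at 0, 0.583 and 5.31 CPM in ganglion libraries, 0, 0.094 and 0.831 in spinal cord libraries and 2.92, 3.91 and 5.61 in cerebellum libraries. It was lower in the spinal cord than in the cerebellum at a log2 fold change of -4.12 ± 0.872 (edgeR adjusted p = 0.000382). The ganglion was called higher than the spinal cord (2.66 ± 0.878, edgeR adjusted p = 0.0161), a call that ended without ganglion replicate 2, at 1.70. Against the cerebellum the ganglion was not called (-1.46 ± 0.733, edgeR adjusted p = 0.0816), and was with the block (-1.87) or without ganglion replicate 2 (-2.43). The gene runx1t1, whose protein is a corepressor and no RUNX factor, had 10.3, 14.6 and 24.9 CPM in ganglion libraries, 4.02, 7.3 and 7.98 in spinal cord libraries and 12.3, 24.5 and 44.5 in cerebellum libraries. It was lower in the spinal cord than in the cerebellum at a log2 fold change of -2.01 ± 0.277 (edgeR adjusted p = 3.36e-06). In the ganglion it was higher than in the spinal cord by 1.21 ± 0.274 (edgeR adjusted p = 0.00108), and was not called against the cerebellum (-0.80 ± 0.267, edgeR adjusted p = 0.0114). Both ganglion results depended on the setting. On log2(TPM + 1), on log2(TPM + 0.1) and without ganglion replicates 2 and 5, the call against the spinal cord was lost, at 0.64, 0.76 and 0.97, and the ganglion was called lower than the cerebellum, at -1.26, -1.37 and -1.04. The pattern of foxb1, a forkhead factor of hindbrain and spinal cord, was the other way, with 0, 0.339 and 0.421 CPM in ganglion libraries, 21.2, 31.4 and 38.3 in spinal cord libraries and 14.8, 17.1 and 19 in cerebellum libraries. The ganglion was lower than the spinal cord (-6.70 ± 0.3004, edgeR adjusted p = 1.72e-12) and than the cerebellum (-5.84 ± 0.296, edgeR adjusted p = 2.13e-12). Spinal cord and cerebellum did not overlap but differed by less than 2-fold (0.86 ± 0.209, edgeR adjusted p = 0.00135). Whether or not the other tissues were called different from each other, 15 members were called lower in the ganglion than in both (19% of those tested, against 9.08% of all genes). On the same terms 5 were lowest in the spinal cord (6.33%, against 2.27%) and 13 in the cerebellum (16.5%, against 20.7%).

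Members called in no contrast were mostly widely expressed. Their log2 fold changes ran from -0.92 to 1.24. The double-strand break repair gene paxx, no paired box gene despite its name, had 25.1, 34.1 and 38.1 CPM in ganglion libraries, 18.7, 25.8 and 28.5 in spinal cord libraries and 38.5, 42.1 and 60.1 in cerebellum libraries. Its values were -0.43 ± 0.144, 0.43 ± 0.145 and -0.86 ± 0.145 for ganglion against cerebellum, ganglion against spinal cord and spinal cord against cerebellum. The basic helix-loop-helix gene atoh8 was at 37.6, 44.9 and 58.9 CPM in ganglion libraries, 20.9, 36.2 and 49.2 in spinal cord libraries and 45.5, 56 and 76.5 in cerebellum libraries. All tissues overlapped, with values of -0.30 ± 0.203, 0.40 ± 0.204 and -0.70 ± 0.204 in the same contrasts. For paxbp1, a partner of PAX proteins in muscle, the levels were 39.3, 50.8 and 56.7 CPM in ganglion libraries, 37.5, 48.1 and 58.4 in spinal cord libraries and 67.3, 81.7 and 104 in cerebellum libraries. All cerebellum libraries lay above those of the other tissues.

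The forkhead gene foxp4 had 58.3, 97.3 and 291 CPM in ganglion libraries, 68.9, 91.4 and 102 in spinal cord libraries and 83, 134 and 158 in cerebellum libraries, its highest value being ganglion replicate 5. Its difference between ganglion and cerebellum was 0.01, and -0.40 without that library. The gene foxp1, a factor of motor neuron columns and lymphocytes, was at 35.1, 43.9 and 48.2 CPM in ganglion libraries, 22.2, 25.9 and 33 in spinal cord libraries and 17.5, 25.9 and 29 in cerebellum libraries. All ganglion libraries lay above all others, with a difference short of 2-fold (0.76 ± 0.147 against the cerebellum and 0.69 ± 0.147 against the spinal cord). For irx5 the levels were 4.96, 5.85 and 17.8 CPM in ganglion libraries, 7.76, 11.7 and 13 in spinal cord libraries and 12.4, 14.1 and 16.7 in cerebellum libraries. Its highest ganglion value was replicate 5, and without that library the ganglion was called lower than the cerebellum, at -1.23. The gene prdm15, the PRDM member with the highest TPM averaged over the tissues, had 13, 16 and 19.2 CPM in ganglion libraries, 16.4, 21.3 and 25.7 in spinal cord libraries and 21.6, 33.7 and 41.6 in cerebellum libraries. It was called lower in the ganglion than in the cerebellum at -1.03 ± 0.169 (edgeR adjusted p = 2.06e-05). That value lay so close to the threshold that the call was lost without ganglion replicate 1, cerebellum replicate 3 or cerebellum replicate 6, at -0.97, -0.97 and -0.95. The call was also lost with upper-quartile scaling (-0.91), without ganglion replicates 2 and 5 (-0.98) and without the 4 libraries highest in acta1 (-0.97).

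Members that did not pass the filter numbered 40, and 34 of them had fewer than 100 counts over the 18 libraries. No count was found for pou1f1, atoh7 and nkx2-6. Fitted with no filter beyond 1 count, 18 of the 37 with a count were called in at least 1 contrast (48.6%, against 40.7% of all genes that did not pass the filter). Besides prdm12, these included nkx1-2, with 82, 10 and 0 counts in ganglion, spinal cord and cerebellum, and phox2a, a factor of autonomic and brainstem neurons, with 14, 125 and 8. In the same order irx1 had 16, 104 and 0, and tbx20, a heart and motor neuron factor, 5, 77 and 0.

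Lists by role, chosen with earlier results of these data known, were read against the shares over all genes, which were 29.6% higher and 22.3% lower in ganglion against cerebellum, 14.5% and 17.3% in ganglion against spinal cord, and 28.9% and 16.3% in spinal cord against cerebellum. Of 10 tested sensory ganglion factors (12 of 21 symbols are in the table), 5 were higher, 3 lower and 2 not called in ganglion against cerebellum, and 2 were higher, 2 lower and 6 not called against the spinal cord. Spinal interneuron factors, with 23 tested and 29 of 38 in the table, were lower in ganglion against spinal cord in 14 cases, higher in 3 and not called in 6. In spinal cord against cerebellum 12 were higher, 2 lower and 9 not called. Their median log2 fold change was -2.47 in the first of these contrasts and 1.45 in the second. Ventral progenitor and floor plate factors (8 tested, 10 of 11 in the table) gave 2 higher, 4 lower and 2 not called in ganglion against spinal cord, and 5 higher and 3 not called in spinal cord against cerebellum. Among 17 tested cerebellar factors (21 of 32 in the table), 2 were higher, 5 lower and 10 not called in ganglion against cerebellum. In spinal cord against cerebellum 10 were higher and 7 not called. Its higher members there include genes also held by the spinal interneuron list, such as lhx5, sox14, foxp2 and gsx1.

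Meningeal, connective tissue and muscle factors (14 tested, 24 of 33 in the table) were higher in the ganglion in 9 cases, lower in 2 and not called in 3 against the cerebellum, and higher in 9, lower in 3 and not called in 2 against the spinal cord, with medians of 2.28 and 2.56. Endothelial and blood factors (11 tested, 14 of 22) were higher in 8 and not called in 3 against the cerebellum, and higher in 5, lower in 1 and not called in 5 against the spinal cord. In spinal cord against cerebellum 9 of these 11 were higher, 1 lower and 1 not called. Oligodendrocyte and progenitor factors (9 tested, 10 of 16) were lower in the ganglion in 5 cases and not called in 4 against the cerebellum, and lower in 6 and not called in 3 against the spinal cord. The list held no SOXE gene, since none carries its symbol in the table. For peripheral glia and neural crest factors only pax3, tbx2 and foxo3 of 11 symbols are in the table, and tbx2 was the one higher in the ganglion. Of 5 tested forebrain and midbrain factors (11 of 17) none was higher and 2 were lower in ganglion against cerebellum, 1 was higher and 2 were lower in ganglion against spinal cord, and 2 were higher and 3 lower in spinal cord against cerebellum.

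Partner proteins of these families were read beside the members, with 26 of 41 listed symbols in the table and all 26 tested. In ganglion against cerebellum 6 were higher, 11 lower and 9 not called, in ganglion against spinal cord 4, 7 and 15, and in spinal cord against cerebellum 7, 8 and 11. As shares, 23.1% were higher and 42.3% lower in the first contrast, 15.4% and 26.9% in the second and 26.9% and 30.8% in the third, to be set against the same shares over all genes. The largest changes between ganglion and cerebellum were those of cbfb, the shared subunit of RUNX factors (3.86 ± 0.357, edgeR adjusted p = 1.2e-08), and of the E protein gene tcf4 that pairs with proneural factors (-3.68 ± 0.237, edgeR adjusted p = 6.35e-11). Next was the Notch target hey2 (3.61 ± 0.2002, edgeR adjusted p = 7.18e-12). Between ganglion and spinal cord they were those of the Notch-related heyl (-4.04 ± 0.462, edgeR adjusted p = 5.04e-07), the LIM-only gene lmo3 (-3.12 ± 0.304, edgeR adjusted p = 5.79e-08) and eya4, a coactivator of sine oculis factors (2.91 ± 0.277, edgeR adjusted p = 4.04e-08). Between spinal cord and cerebellum hey1 was higher in the spinal cord (3.81 ± 0.285, edgeR adjusted p = 9.08e-10), and eya4 (-3.25 ± 0.279, edgeR adjusted p = 6.3e-09) and lmo2 (-3.05 ± 0.265, edgeR adjusted p = 7.55e-09) were lower. Picked outside this ranking of largest changes, the sine oculis coactivator gene eya1 was at 1.48 ± 0.525 in ganglion against cerebellum and 1.78 ± 0.537 against the spinal cord. Also outside the ranking, dach1 of the same list went the other way, at -2.08 ± 0.164 and -1.70 ± 0.163, and was called lower in both contrasts.

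The spread between libraries was wider in the ganglion. Among members with a mean of at least 10 CPM, the coefficient of variation had a median of 35.2% in the ganglion (32 members, 11.4% for meis1 to 113% for irx2), 16.3% in the spinal cord (40 members, 6.02% for foxo3 to 61.6% for foxd1) and 17.8% in the cerebellum (30 members, 4.63% for sox11 to 44.1% for sox13). Over all genes at that level the medians were 30.8%, 16.1% and 14.7%.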

How the data were processed

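RNA-seq libraries of 6 trigeminal ganglia, 6 spinal cords and 6 cerebella were used, each a tissue of 1 fish. The submitters' processing notes name STAR 2.7.7a, Trimmomatic 0.39, Subread 2.0.1, CASAVA 1.8.2 and featureCounts. No source used here gives the genome build, the annotation or the strand setting of the counting, and the library kit does not mark strand, so reads of a gene and an antisense partner, or of near-identical copies, may not be told apart. Per the file headers, the authors deposited 2 kinds of value per library, raw counts of each gene and TPM, which they scaled for gene length and library. All columns of sample values were used.

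Counts were fitted with edgeR 4.0.16 in R 4.3.3 (filterByExpr by tissue, which kept 20691 genes at about 0.823 CPM in 6 libraries, TMM scaling, quasi-likelihood test with tissue as the only term, 15 residual degrees of freedom). The fit covered all 18 libraries and was tested on simulated counts. Benjamini-Hochberg adjustment ran over all genes tested. For a tissue with no count the fold is a bound against 3 counts in its 6 libraries together, and with 1 to 3 counts a ratio with a 95% exact binomial (Clopper-Pearson) interval is given. Floors and intervals cover counting error only. The smallest library held 10346375 counts. P-values measure the spread between libraries of different fish. Alternatives were DESeq2 1.42.0, upper-quartile and RLE scaling, no filter, limma 3.58.1 on log2 TPM with 1 or 0.1 added, the replicate number as a block, and leaving out libraries. Figures used matplotlib 3.10.9 in Python 3.11.15.

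Deviations from tissue means correlated between libraries with the same replicate number at 0.124 to 0.403 for ganglion with spinal cord and 0.216 to 0.404 for spinal cord with cerebellum, and at 0.0759 to 0.297 for ganglion with cerebellum, where 4 of 6 were over 0.1. The labels name 6 fish but do not say that a number marks a fish. For 6 of 6 ganglion libraries the closest cerebellum library had the same number, and for 5 of 6 the closest spinal cord library did. The same held for 6 of 6 spinal cord libraries with the cerebellum. On this check alone the numbers were used as a block, in an alternative fit. The fits that gave the adjusted p-values above had tissue as the only term and did not pair the libraries.

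Members and lists were chosen with earlier results of these data known. Levels are given by library for the 6 largest and 6 smallest log2 fold changes per contrast among called members without overlap and with an average log2 CPM of at least 1, for the member of each family with the highest TPM, and for the 6 most abundant members called in no contrast. Others are given as means, counts or ranges, and foxo3, sox4, sox7, sox21, runx1, neurog1 and others outside this rule were chosen after their values were seen. Values of some members are not reported here, though counts over the members include them.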

Additional observations from a re-analysis of the deposited data

Results flagged for a closer look

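Dixon's test was run on the 32 members chosen by the naming rule and on prdm12, in each tissue where the mean was at least 1 CPM, and on no other members. In 8 of these 80 groups of 6 libraries, 1 library stood apart, its gap to the nearest other library being too large a share of the group's range at the 95% level. Chance alone gives about 1 in 20 groups if the values are normally distributed and the groups independent. The values tested were CPM without a log transform, and groups of the same tissue share libraries, so that rate is only a rough guide.

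Ganglion replicate 5 was highest for tbx15 at 76.2 CPM (7.71 to 32.2 CPM in the other ganglion libraries), for irx2 at 47.7 CPM (3.08 to 17.5 CPM) and for irx5 at 17.8 CPM (4.96 to 8.03 CPM). Ganglion replicate 2 was highest for irx6 at 5.31 CPM, against 0 to 1.92 CPM in the others. Ganglion replicate 1 was highest for foxl2 at 36.3 CPM, against 9.36 to 18.1 CPM, and is the library with 3252 CPM of the muscle gene acta1.

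In the spinal cord, meis1 was lowest in replicate 1 at 115.6 CPM, against 161 to 183 CPM in the other libraries. In the cerebellum, paxx was highest in replicate 4 at 60.1 CPM, against 38.5 to 45.5 CPM, and tbx18 in replicate 6 at 5.32 CPM, against 0.578 to 1.92 CPM. What set these libraries apart was not tested.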

How the results depend on the processing

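Of 137 calls among the members (79 genes, 3 contrasts), 106 held under every one of 27 alternatives in which the gene was tested, and none changed sign. Counts moved by over 1.5 times in few cases. The number of members tested differed: 79 as reported, 106 with DESeq2, 116 with no filter, 72 on log2(TPM + 1), 80 to 83 with 1 library left out, 84 without ganglion replicates 2 and 5 and 86 without the 4 libraries highest in acta1. DESeq2 gave 17 members highest in the ganglion, among them all 11 reported. With limma on log2(TPM + 1), 13 were higher in ganglion against cerebellum (3075 of 20294 over all genes). In ganglion against spinal cord 10 were higher (1201 over all genes), and 11 were highest in the cerebellum. With log2(TPM + 0.1), 37 of 79 members were lower in ganglion against cerebellum, beside 8073 of 20691 genes, and 15 were highest in the cerebellum. Without ganglion replicates 2 and 5, 11 were highest in the cerebellum. Counts of all genes highest in a tissue were not taken under the alternatives. The TPM scales put the median of all genes at -0.52 and -0.61 in ganglion against cerebellum, at -0.37 and -0.46 in ganglion against spinal cord and at -0.14 in spinal cord against cerebellum, and upper-quartile scaling put it at 0.19, -0.04 and 0.23. The cause of the other shifts was not tested.

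Leaving out each library in turn gave 22 to 24 members higher and 23 to 28 lower in ganglion against cerebellum, 15 to 19 and 27 to 31 in ganglion against spinal cord, 31 to 35 and 12 to 15 in spinal cord against cerebellum, and 9 to 12, 17 to 21 and 7 to 9 highest in ganglion, spinal cord and cerebellum. With the replicate number as a block the counts were 21 higher and 26 lower, 17 and 30, and 31 and 14 in the same contrasts, and 11, 18 and 9 by tissue. Over all 20691 genes the block gave 5999 higher and 4835 lower, 2880 and 3801, and 6047 and 3445 in these contrasts. Of the members named above, irx2, irx6 and foxo3 gained a call with the block, and foxp3 and pbx3 lost one.

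Over all tested members, 25 of 237 values turned sign under some alternative or stood at or near 0, all of differences that were not called. They included sox21 in ganglion against cerebellum, as low as -0.27, and barhl1 in spinal cord against cerebellum, as high as 0.44. For the members given by library the values on log2(TPM + 1) and log2(TPM + 0.1) were, for ganglion against cerebellum, -0.14 and -0.66 for foxj1, -0.53 and -0.59 for foxl2 and -0.81 and -0.84 for foxp4, for ganglion against spinal cord, -0.12 and -0.13 for foxp4 and -0.36 and -0.37 for paxbp1, and for spinal cord against cerebellum, -0.12 and -0.13 for foxp1. For foxp4 in ganglion against cerebellum it was also -0.016 with no filter, -0.17 with the block and -0.71 without ganglion replicates 2 and 5. The last setting gave -0.18 for foxp4 and 0.10 for gata2 in ganglion against spinal cord. Without the 4 libraries highest in acta1, foxl2 in ganglion against cerebellum was -0.21. Leaving out single libraries gave -0.70 to 0.54 for foxj1, -0.20 to 0.34 for foxl2 and -0.40 to 0.18 for foxp4 in ganglion against cerebellum, -0.28 to 0.043 for gata2 and -0.025 to 0.10 for paxbp1 in ganglion against spinal cord, and -0.035 to 0.11 for foxp1 and -0.67 to 0.047 for tbx18 in spinal cord against cerebellum.

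Depth limits members with few counts: for the 34 untested members under 100 counts, a difference may lie below what these libraries can show, and no statement of absence is made.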
